A study of Mus musculus with 31 samples.

Results

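Vitamin C (Vc) was compared with its controls in mouse reprogramming cells that carried a Tet1CD virus and were collected at day 8. The comparison held 6 of the 31 libraries of the series, chosen by their labels: 2 libraries with Vc, 2 with DMSO and 2 with DKG, the last 4 pooled as the control. All 6 came from cells of the strain 129/OG2 at passage 0 that had received OKSM, the reprogramming factors Pou5f1 (Oct4), Klf4, Sox2 and Myc, so the controls carried OKSM and Tet1CD too. Each medium had 1 library numbered 0824 and 1 numbered 0826, and the number entered the test as a block. For comparison, the same 3 media were measured in cells with a Flag virus at day 8 (6 libraries) and in Tet1CD cells at day 3 (6 libraries), all under OKSM, and 2 libraries each of fibroblasts (MEF, passage 2) and embryonic stem cells (ESC) gave reference levels. The labels do not say what the Tet1CD construct contains, do not spell out DKG, give no dose and name no separate cultures behind the paired libraries of a medium. The p-values therefore rest on the variation among these samples, and that variation may be technical only.

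Vitamin C is a cofactor of enzymes that use iron and 2-oxoglutarate. Among them are the TET proteins, which oxidise 5-methylcytosine in DNA, the histone demethylases of the JmjC class, and the prolyl and lysyl hydroxylases that modify collagen. Vitamin C is known to help fibroblasts reach the pluripotent state under OKSM, a state held by transcription factors such as Nanog and Esrrb, and several germline genes are kept silent in somatic cells by methylated promoters.

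Total expected counts of the 12 day 8 libraries lay between 3953297 and 6818060, so that 3 counts, the limit that a count of 0 allows, corresponded to 0.44 to 0.759 CPM (counts scaled to a common library total). One Vc library, 0824, stood apart. The 22 macrophage markers summed to 2266 CPM there, against 113.3 CPM in Vc 0826 and 62.65 to 95.47 CPM in the 4 controls, and all 22 had their highest day 8 level in that library. The same sum was 3625 and 780 CPM in the MEF libraries. The lysosomal protease gene Ctss, for example, had 151 CPM in Vc 0824 and 0.376 CPM in Vc 0826. Of the 22 markers 7 passed the filter on low counts, and all 7 were called higher with Vc (4.98% of all genes were). Vc 0824 had been singled out for its macrophage transcripts beforehand. These calls were therefore largely fixed in advance and are a description. The median log2 fold change of the 7 markers, 4.40, was 0.05 without Vc 0824. For 4 of the 7, each Vc library exceeded both controls of its number (21.3% of all genes tested). Vc 0826 had 9.58 CPM of Cd68 against 3.77 and 3.79 CPM, and 86.6 CPM of Laptm5 against 48.5 and 59.2 CPM. Csf1r and Ctss were among the markers that did not exceed both controls in Vc 0826. Csf1r had 0.939 CPM there against 1.26 and 1.79 CPM, and Ctss 0.376 CPM against 1.01 and 0.179 CPM. At day 3, 3 of 6 tested markers (Cd68, Itgam and Laptm5) were called higher with Vc (5.08% of all genes were). None of the 22 was at 0 in Vc 0824, and the part of these transcripts in any other result was not tested. In the same library the 30 fibroblast and matrix genes summed to 10900 CPM, against 13840 and 13580 CPM in the controls of its number, while Vc 0826 had 19230 CPM against 19330 and 19790 CPM. In a bulk library, fewer cells of a type and less RNA per cell cannot be told apart.

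With all 12 day 8 libraries in the fit, 687 of 13795 genes (4.98%) were called higher and 346 (2.51%) lower with Vc in Tet1CD cells, at an adjusted p under 0.05 in edgeR's quasi-likelihood test. Without Vc 0824, 212 of 14093 genes (1.5%) were higher and 72 (0.511%) lower. The genes described first are those called the same way in both fits, 182 higher (1.32% of 13785) and 64 lower (0.464%). The fit without Vc 0824 leaves 1 Tet1CD library with Vc, which is assumed to vary like the libraries of the other groups, and it shares its control libraries with the first fit. Genes that passed the filter on low counts through the Vc libraries had to differ, so the counts over list members below are descriptions. Their median log2 fold changes were 1.48 and -0.93, and 133 and 26 of them passed a 2-fold difference. Each Vc library was above both controls of its own number for all 182 (21.3% of all genes tested were) and below them for all 64 (21.4% of all). Both Vc libraries lay above all 4 controls for 149 of the 182 (9.34% of all genes tested) and below them for 40 of the 64 (8.63% of all). The genes of both sets were selected on these same libraries, so lying beyond the controls was largely fixed by the selection and is a description. Without the number as a block, 87 genes were called over the 12 libraries. DKG against DMSO gave 0 calls in Tet1CD cells (0.0% in either direction), with 257 genes at an unadjusted p under 0.05 and 2 calls by DESeq2.

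**Figure D1:**
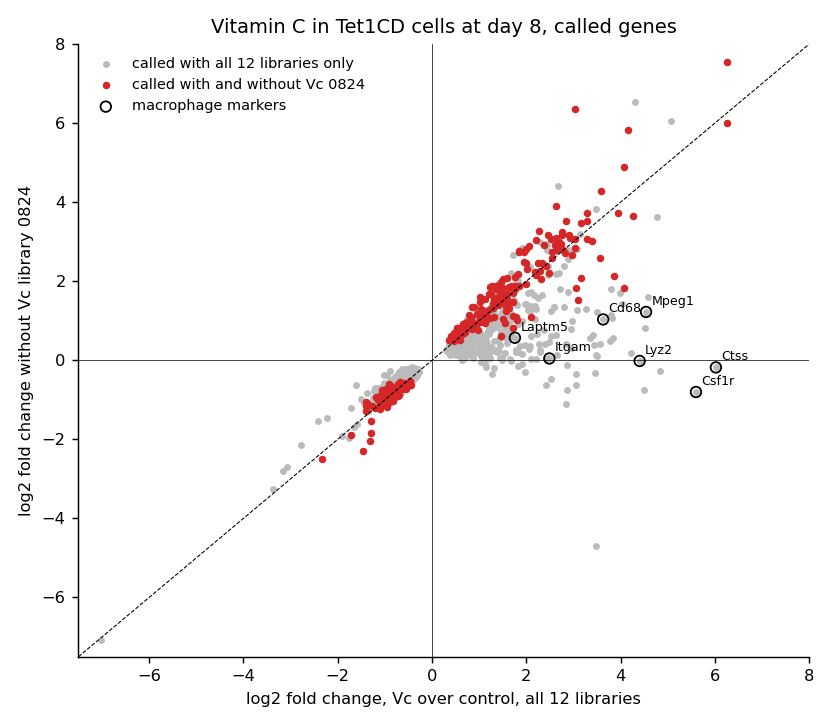
Each point is a gene called with all 12 day 8 libraries, with its log2 fold change of Vc over DMSO and DKG in that fit (horizontal) and without Vc library 0824 (vertical). Genes called in both fits are red, and the 7 macrophage markers (open circles) have a median of 4.40 on the horizontal and 0.05 on the vertical axis.

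Tet1, the gene of a TET dioxygenase (ENSMUSG00000047146, chromosome 10, 62804570 to 62908996 in mm10), was read at 331 and 605.5 CPM with DMSO, 299.6 and 629.5 CPM with DKG, and 185 and 254 CPM with Vc, in the order 0824 and 0826. Both Vc libraries lay below all 4 controls, and the log2 fold change of -1.06 ± 0.35 (SE) had an adjusted p of 0.0787. Reads of the virus and of the endogenous gene cannot be told apart here. Tet2 and Tet3 had log2 fold changes of -0.22 ± 0.12 (adjusted p = 0.33) and -0.20 ± 0.12 (adjusted p = 0.363). The 4 OKSM genes, whose introduced copies also cannot be told from the endogenous ones, were not called, with log2 fold changes from -0.34 to -0.09.

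Most tested pluripotency genes were called higher with Vc. A list of 40 genes had 37 tested members, with a median log2 fold change of 1.35 over the 12 libraries (all genes tested: 0.00). Of these 37, 24 were called higher (4.98% of all genes were) and 1 lower (2.51% of all). Called higher with and without Vc 0824 were 11 of them (1.32% of all genes were): Nanog, Esrrb, Zscan10, Sall4, Gdf3, Tdgf1, Mycn, Utf1, Lin28a, Dppa5a and Lefty2. The median without Vc 0824 was 1.44, and 25 of the 40 had their highest day 8 level in Vc 0824.

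Utf1, a chromatin factor of undifferentiated cells, had 44.6 and 6.95 CPM with Vc, 7.81 and 1.26 CPM with DMSO, and 11.5 and 1.08 CPM with DKG. Every Utf1 level of number 0824 exceeded that of number 0826 in the same medium, so Vc 0826 lay below both 0824 controls while exceeding both of its own. The log2 fold change was 2.37 ± 0.25 (adjusted p = 4.46e-05). Tdgf1, the gene of the Nodal coreceptor Cripto, had 85.7 and 32.1 CPM with Vc against 22.7 and 3.03 CPM with DMSO and 39.1 and 7.35 CPM with DKG. The groups overlapped across the numbers but not within them (log2 fold change 1.96 ± 0.32, adjusted p = 0.00148).

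Lin28a, an RNA-binding protein gene that blocks let-7 maturation, had 38.9 and 13.7 CPM with Vc against 7.25 and 1.01 CPM with DMSO and 15.3 and 2.69 CPM with DKG (log2 fold change 2.21 ± 0.38, adjusted p = 0.00236). Esrrb, an orphan nuclear receptor gene of the pluripotency network, had 19.2 and 5.64 CPM with Vc. Its controls lay between 0.253 and 4.14 CPM, below both Vc libraries (2.46 ± 0.38, adjusted p = 0.00104). Gdf3, a TGF-beta family ligand gene, had nearly equal levels in both Vc libraries, 58.3 and 56.5 CPM, against 15.2 to 28.5 CPM in the controls (1.38 ± 0.24, adjusted p = 0.00211). Nanog, the homeodomain factor gene, rose less. It had 44.5 and 17.3 CPM with Vc against 31.4 and 5.81 CPM with DMSO and 33.7 and 6.64 CPM with DKG, a log2 fold change of 0.85 ± 0.21 (adjusted p = 0.0208). Single libraries decided some of these values. Without Vc 0824 the log2 fold changes were larger, at 3.04 for Lin28a, 2.73 for Tdgf1, 3.16 for Esrrb, 1.86 for Sall4 and 2.73 for Lefty2. Nanog was not called without Vc 0826 (0.49, adjusted p = 0.12), nor without DMSO 0824, DMSO 0826 or DKG 0826 (adjusted p = 0.0529 to 0.0585), and Lefty2 was not called without DMSO 0824 (adjusted p = 0.0561).

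These levels stayed far below those of ESC, where Nanog had 512.5 and 604 CPM and Esrrb 431 and 628 CPM. Zfp42 (Rex1), a marker of naive pluripotent cells, was called over the 12 libraries (12.2 and 4.13 CPM with Vc, 1.26 to 2.91 CPM in the controls, adjusted p = 0.00968) and was not called without Vc 0824 (adjusted p = 0.309). L1td1, an RNA-binding protein gene of pluripotent cells, had 306 and 209.6 CPM with Vc against 159.9 to 342.5 CPM in the controls and was not called. Alpl, the gene of the alkaline phosphatase used as an early reprogramming marker, fell: 22.8 and 17.1 CPM with Vc, below all 4 controls at 35.7 to 50.6 CPM (log2 fold change -1.08 ± 0.14, adjusted p = 0.00024).

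**Figure D2:**
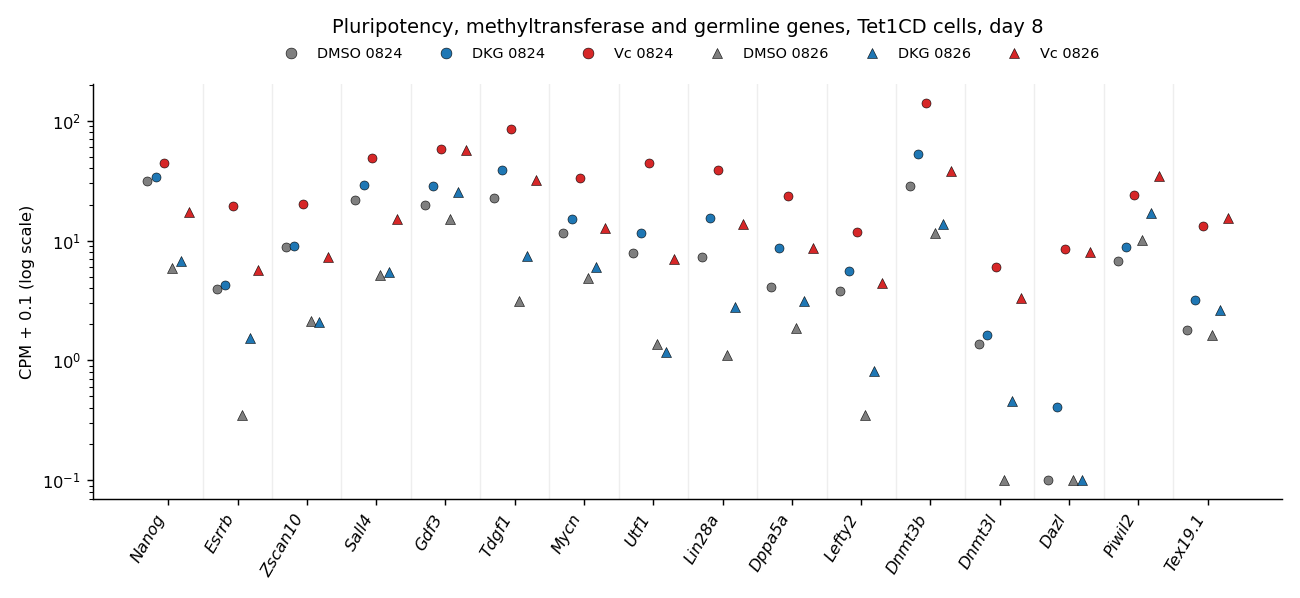
CPM plus 0.1 (log scale) of 16 genes called higher with and without Vc 0824 in the 6 Tet1CD libraries of day 8; colour gives the medium and shape the number. In every gene each red Vc point lies above the 2 controls of its shape, and many pluripotency genes are higher in number 0824 than in 0826.

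Among 18 tested genes of DNA methylation and its removal, 4 were called higher over the 12 libraries and 0 lower, with a median log2 fold change of 0.14, and 2 were called in both fits: the de novo methyltransferase gene Dnmt3b and Dnmt3l, which encodes its cofactor without catalytic activity. Of all genes tested, 4.98% were called higher and 2.51% lower over the 12 libraries, and 1.32% were called higher in both fits. Dnmt3b had 142 and 38.3 CPM with Vc against 28.6 and 11.4 CPM with DMSO and 52.7 and 13.6 CPM with DKG. Its log2 fold change was 1.72 ± 0.25 (adjusted p = 0.000617). Dnmt3l had 5.92 and 3.19 CPM with Vc and 0 to 1.53 CPM in the controls (adjusted p = 0.016, and 0.0555 without DMSO 0824). Its log2 fold change of 2.63 was 3.90 without Vc 0824. The maintenance genes Dnmt1 and Uhrf1 had log2 fold changes of 0.35 ± 0.09 and 0.37 ± 0.10 over the 12 libraries (adjusted p = 0.0266 and 0.043), and neither was called without Vc 0824 (adjusted p = 0.587 and 0.591).

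Germline genes were mostly too low to test: 8 of 23 in the files passed the filter, some of them, such as Dazl, through the Vc libraries alone. Of the 8, 4 were called higher over the 12 libraries (4.98% of all genes were), with Mov10l1 called in that fit only. Called with and without Vc 0824 were 3 of the 8 (1.32% of all genes were called higher in both). They were Dazl, an RNA-binding protein gene of germ cells, Tex19.1, a germ cell gene that restrains retrotransposons, and Piwil2, a piRNA-binding Argonaute gene. Dazl had 8.43 and 7.89 CPM with Vc, 0 CPM in 3 controls and 0.307 CPM in DKG 0824, which is 89 counts over both Vc libraries and 2 over the 4 controls (adjusted p = 0.000255). Tex19.1 had 13.3 and 15.4 CPM with Vc against 1.52 to 3.06 CPM in the controls (log2 fold change 2.69 ± 0.41, adjusted p = 0.000908). Piwil2 had 23.8 and 34.4 CPM with Vc against 6.68 to 16.9 CPM (1.47 ± 0.25, adjusted p = 0.00176). Levels of Dazl and Tex19.1 did not follow the number, unlike those of most pluripotency genes above.

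The start regions of 3 raised genes and of P4ha1, a lowered gene described below, are shown because CpG sites are where the DNA methylation that TET enzymes oxidise sits. Each runs from 250 bases before to 50 bases after the RefSeq start (GRCm38.p6), 5′ to 3′ along the gene, with every CpG in capitals. Dazl lies at chr17:50293571-50293870 (minus strand), Tex19.1 at chr11:121145893-121146192, Utf1 at chr7:139943606-139943905 and P4ha1 at chr10:59323046-59323345 (plus strand).
Dazl: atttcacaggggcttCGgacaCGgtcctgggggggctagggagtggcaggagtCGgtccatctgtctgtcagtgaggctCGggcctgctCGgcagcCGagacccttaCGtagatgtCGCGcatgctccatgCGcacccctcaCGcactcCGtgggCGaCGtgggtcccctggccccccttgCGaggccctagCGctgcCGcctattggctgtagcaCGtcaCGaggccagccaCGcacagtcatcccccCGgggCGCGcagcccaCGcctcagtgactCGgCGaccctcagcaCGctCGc
Tex19.1: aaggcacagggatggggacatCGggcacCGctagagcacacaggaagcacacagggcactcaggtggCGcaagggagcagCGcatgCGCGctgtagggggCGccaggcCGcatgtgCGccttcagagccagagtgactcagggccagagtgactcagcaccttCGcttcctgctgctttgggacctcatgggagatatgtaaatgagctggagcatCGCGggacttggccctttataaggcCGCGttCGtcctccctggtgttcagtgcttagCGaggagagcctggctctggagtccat
Utf1: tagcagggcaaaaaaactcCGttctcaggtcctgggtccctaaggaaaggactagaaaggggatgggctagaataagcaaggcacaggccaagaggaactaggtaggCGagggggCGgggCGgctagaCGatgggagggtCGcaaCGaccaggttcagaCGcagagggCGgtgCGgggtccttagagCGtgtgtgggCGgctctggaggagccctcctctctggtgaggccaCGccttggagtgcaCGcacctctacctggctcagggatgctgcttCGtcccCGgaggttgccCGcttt
P4ha1: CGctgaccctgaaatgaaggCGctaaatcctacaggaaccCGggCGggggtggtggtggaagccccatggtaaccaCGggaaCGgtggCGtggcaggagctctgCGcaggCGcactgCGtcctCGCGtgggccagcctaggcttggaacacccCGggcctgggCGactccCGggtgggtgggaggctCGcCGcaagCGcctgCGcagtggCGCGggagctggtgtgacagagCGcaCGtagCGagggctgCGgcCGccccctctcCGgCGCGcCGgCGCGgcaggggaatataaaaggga
They hold 28, 16, 17 and 32 CpG sites. The median over the 32851 starts of the table was 7, and 85.8%, 67.0%, 68.6% and 90.5% of starts held fewer. The lowered gene held the most of the 4, with Dazl next. DNA methylation was not analysed here.

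A set of 7 raised genes had been grouped, in earlier results of these data, by a repeated sequence that their transcripts share with other genes: Slc38a6, Noct, Wdr31, Kif24, Slco1a6, Gm14149 and Gm13632. These 7 were chosen for their response in these libraries, so their levels are a description. Together they summed to 8866 and 8445 CPM with Vc against 1043 to 2160 CPM in the controls. Slc38a6, an amino acid transporter gene (chromosome 12, 73286779 to 73354049), had 4507 and 4305 CPM with Vc, 479.5 and 441 CPM with DMSO, and 1036 and 729.5 CPM with DKG. Both Vc libraries were far above all controls, and the log2 fold change was 2.74 ± 0.24 (adjusted p = 8.03e-06). Noct, the gene of a circadian phosphatase once described as a deadenylase (chromosome 3, 51224447 to 51251644), had 3680 and 3552 CPM against 497 to 978 CPM in the controls (2.41 ± 0.23, adjusted p = 1.33e-05).

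Rab3gap1, a subunit gene of a Rab GTPase activator, had 1069 and 1012 CPM with Vc against 171 to 273 CPM (2.28 ± 0.15, adjusted p = 1.09e-06). Kif24, a kinesin gene of the cilium base, had 165 and 132 CPM against 14.9 to 39.1 CPM (2.62 ± 0.18, adjusted p = 1.09e-06). Cfap70, a gene of motile cilia, had 24.9 and 25.4 CPM, and its controls held 7 counts in all against 274 with Vc (adjusted p = 1.3e-06). Counts of many such genes are uncertain, since RSEM divides reads that match several genes. A stretch of 50 identical bases was shared with another gene by the transcripts of 88 of the 182 raised genes (48.4%), 19 of the 64 lowered genes (29.7%) and 30.9% of all genes with transcripts. Of the 20 raised genes of smallest p, 18 shared one. Among the raised genes named here, inside or outside those 20, Rab3gap1, Kif24, Slc38a6, Noct, Wdr31, Slco1a6, Gm14149 and Gm13632 did. Inpp5d, Blnk and Glipr1, given below, did as well. So did Nanog, Gdf3, Dppa5a, Lefty2, Tex19.1, Oas1a and Xaf1, whose counts are therefore uncertain too. Cfap70, Dazl and Sncg did not. Sncg, a synuclein gene without such a stretch, had 35 and 57.1 CPM with Vc against 6.96 to 12.02 CPM (2.34 ± 0.16, adjusted p = 1.09e-06). Slpi, a secreted protease inhibitor gene, and Glipr1 had log2 fold changes of 3.03 ± 0.31 and 1.59 ± 0.16. Inpp5d and Blnk, both signalling genes, had their highest day 8 level in Vc 0824, at 71.5 and 20.4 CPM against 5.07 and 4.13 CPM in Vc 0826. Their log2 fold changes of 3.87 and 3.56 were 2.14 and 2.59 without Vc 0824. Inpp5d had 123 and 259 CPM in ESC and 33.7 and 10.5 CPM in MEF. Blnk had 1.18 and 11.4 CPM in ESC and 7.88 and 2.21 CPM in MEF. Both were also called higher with Vc at day 3, with log2 fold changes of 1.98 and 2.55.

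**Figure D3:**
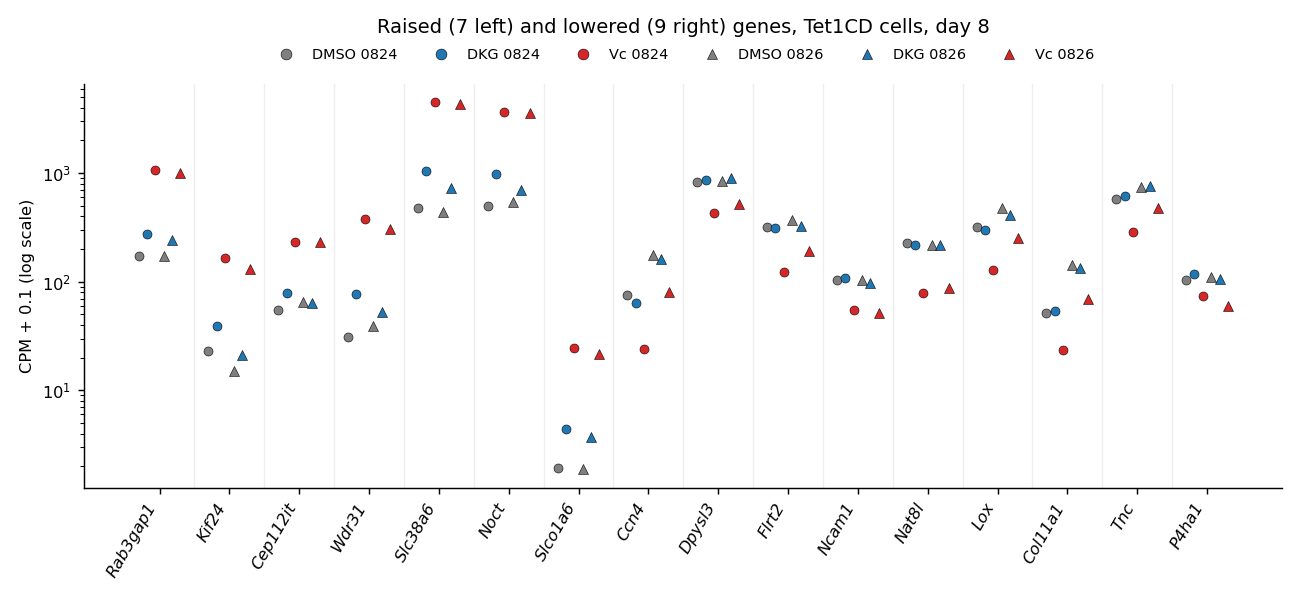
CPM plus 0.1 (log scale) in the 6 Tet1CD libraries of day 8 for 7 raised genes (left) and 9 lowered genes (right), with colour for the medium and shape for the number. Slc38a6 reached 4507 and 4305 CPM with Vc, and Nat8l had 78.2 and 87.3 CPM with Vc below all 4 controls.

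The lowered genes of smallest p are given first. Nat8l, the gene that makes N-acetylaspartate, had 78.2 and 87.3 CPM with Vc and 216 to 227.5 CPM in the 4 controls (log2 fold change -1.40 ± 0.15, adjusted p = 4.87e-05). The controls spanned a narrow range and both Vc libraries lay well below it. Ncam1, a neural cell adhesion gene, had 55.4 and 51.3 CPM with Vc against 97.0 to 107 CPM (-0.94 ± 0.10, adjusted p = 4.57e-05). Ccn4, a secreted matricellular protein gene, had 23.8 and 80.8 CPM with Vc against 74.6 and 177.6 CPM with DMSO and 63.1 and 160 CPM with DKG. It depended on the number, and each Vc library was below the controls of its own (-1.26 ± 0.12, adjusted p = 1.63e-05). Dpysl3, a gene of axon growth, had 425 and 521 CPM against 831 to 906 CPM (-0.87 ± 0.09, adjusted p = 2.21e-05). Flrt2, a fibronectin leucine-rich transmembrane protein gene, had 123.5 and 192 CPM against 310 to 368 CPM (-1.08 ± 0.11, adjusted p = 3.41e-05). Tnc and Col11a1, which encode the matrix proteins tenascin C and a fibrillar collagen chain, fell by 0.85 and 1.08 on the log2 scale (adjusted p = 0.000155 and 0.000104). Egfl6, Lama2, Sema6d, Gucy1b1 and Ccn3 had log2 fold changes from -1.38 (Gucy1b1) to -0.87 (Lama2).

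The hydroxylation of collagen is the step where vitamin C is best known as a cofactor. The list of collagen modification also holds lysyl oxidase genes, which are not hydroxylases. Of its 20 genes, all tested, 0 were called higher (4.98% of all genes were) and 4 lower (2.51% of all) over the 12 libraries. Their median log2 fold change was -0.20, and 17 of 20 had a negative one. Both fits called P4ha1, a catalytic subunit gene of collagen prolyl 4-hydroxylase, and Lox, the lysyl oxidase gene that cross-links collagen. P4ha1 had 74.4 and 59.9 CPM with Vc against 104 to 118.5 CPM (-0.70 ± 0.12, adjusted p = 0.00263). Lox had 127.5 and 255 CPM with Vc against 322 and 475 CPM with DMSO and 302 and 411 CPM with DKG (-1.03 ± 0.11, adjusted p = 5.73e-05). P4ha2 and Loxl2 were called over the 12 libraries (-0.88 ± 0.19 and -0.59 ± 0.11) and not without Vc 0824 (adjusted p = 0.131 and 0.138). The 30 fibroblast and matrix genes had a median of -0.05 over the 12 libraries and 0.095 without Vc 0824, with 1 called higher (Thy1), 5 lower and 0 called in both fits. Postn, a matrix protein gene among these 5, had 38.7 and 178 CPM with Vc against 106 and 235 CPM with DMSO and 99.5 and 236 CPM with DKG, and was not called without Vc 0824 (adjusted p = 0.133).

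Of 26 interferon-stimulated genes tested, 18 were called higher with Vc over the 12 libraries (4.98% of all genes were) and 4 in both fits (1.32% of all), namely Oas2, Oas1a, Bst2 and Xaf1. All 26 had a positive log2 fold change, with a median of 1.01 over the 12 libraries and 0.78 without Vc 0824. In Vc 0824, the library with the macrophage sum of 2266 CPM, 20 of the 26 had their highest day 8 level, and the part of those transcripts was not tested. Xaf1, an apoptosis-linked gene, was not called without Vc 0826 (adjusted p = 0.191), nor without DMSO 0824, DMSO 0826 or DKG 0824 (adjusted p = 0.0577 to 0.0711). Oas2, a sensor gene for double-stranded RNA, had 125 and 123 CPM with Vc against 43.2 and 39.2 CPM with DMSO and 60.8 and 70.3 CPM with DKG (1.21 ± 0.18, adjusted p = 0.000605). Bst2, the gene of tetherin, had 119.9 and 124 CPM against 52.0 to 77.8 CPM (0.82 ± 0.14, adjusted p = 0.00211). Oasl1, an inhibitor gene of the interferon response, was high in 1 library only, at 43.0 CPM in Vc 0824 against 3.38 CPM in Vc 0826.

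The 20 targets of the stress factor Nrf2 and redox genes had a median log2 fold change of 0.365 over the 12 libraries. Of these, 7 were called higher (4.98% of all genes were) and 0 lower (2.51% of all). The 2 called higher in both fits (1.32% of all genes were) were the quinone reductase gene Nqo1 and the ferritin heavy chain gene Fth1. Nqo1 had 74.4 and 57.9 CPM with Vc against 27.5 to 33.7 CPM (1.07 ± 0.12, adjusted p = 4.72e-05). Fth1 had 1747 and 886 CPM against 397 to 628 CPM, and its log2 fold change of 1.47 was 0.62 without Vc 0824 and 2.08 without Vc 0826. Fth1 had 1461 and 784 CPM in the MEF libraries and 547 and 579 CPM in the ESC libraries. The part of macrophage transcripts in the Fth1 levels was not tested.

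Epithelial genes gave 7 called higher of 26, with 2 in both fits: the adhesion gene Cdh1 (90.2 and 32.1 CPM with Vc against 51.7 and 10.4 CPM with DMSO and 42.9 and 16.1 CPM with DKG, adjusted p = 0.00151) and the membrane protease gene St14, which was not called without Vc 0826 (adjusted p = 0.249) or without any 1 of the 4 controls (adjusted p = 0.0572 to 0.0887). Of 12 tested endothelial genes 2 were called higher in both fits, and 1, the angiopoietin receptor gene Tek, was called lower over the 12 libraries only. Of all genes tested, 4.98% were called higher and 2.51% lower over the 12 libraries, and 1.32% were called higher in both fits. Mmrn2, an endothelial matrix protein gene, had 18.1 and 28.4 CPM with Vc against 2.13 to 5.21 CPM (2.63 ± 0.33, adjusted p = 0.00022). Eng, the TGF-beta coreceptor gene, had 66.0 and 77.8 CPM against 36.1 to 47.7 CPM. The defining endothelial gene Cdh5 was at 0 to 0.179 CPM in all 6 libraries, within the limit that a count of 0 allows. Gdf15, a stress-induced ligand gene of the p53 list, had 14.3 and 13.5 CPM against 1.01 to 4.26 CPM (2.25 ± 0.29, adjusted p = 0.000267), while 1 other of its 20 genes, Trp53, was called.

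Of 20 DNA replication genes 2 were called higher and of 20 mitosis genes 3 (4.98% of all genes were), with 0 in both fits and medians of 0.23 and 0.21. In each list 19 of 20 genes had a positive log2 fold change, and each Vc library lay above both controls of its number for 13 replication and 14 mitosis genes (21.3% of all genes tested). Of 19 histone demethylase genes, 1, the H3K9 and H3K27 demethylase gene Kdm7a, was called lower (-0.54 ± 0.14, adjusted p = 0.0227, and 0.252 without Vc 0824). The 23 hypoxia genes gave 1 call in each direction (Epas1 and Narf), and the 22 imprinted genes 2 lower (Plagl1 and Grb10). Of all genes tested, 2.51% were called lower. No call was made among 7 genes of vitamin C handling, 17 keratinocyte genes, 8 neural genes and 4 genes of extraembryonic endoderm. One gene each was called higher among trophoblast (Eomes), integrated stress (Cebpb) and muscle genes (Des), the last in both fits.

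**Figure D4:**
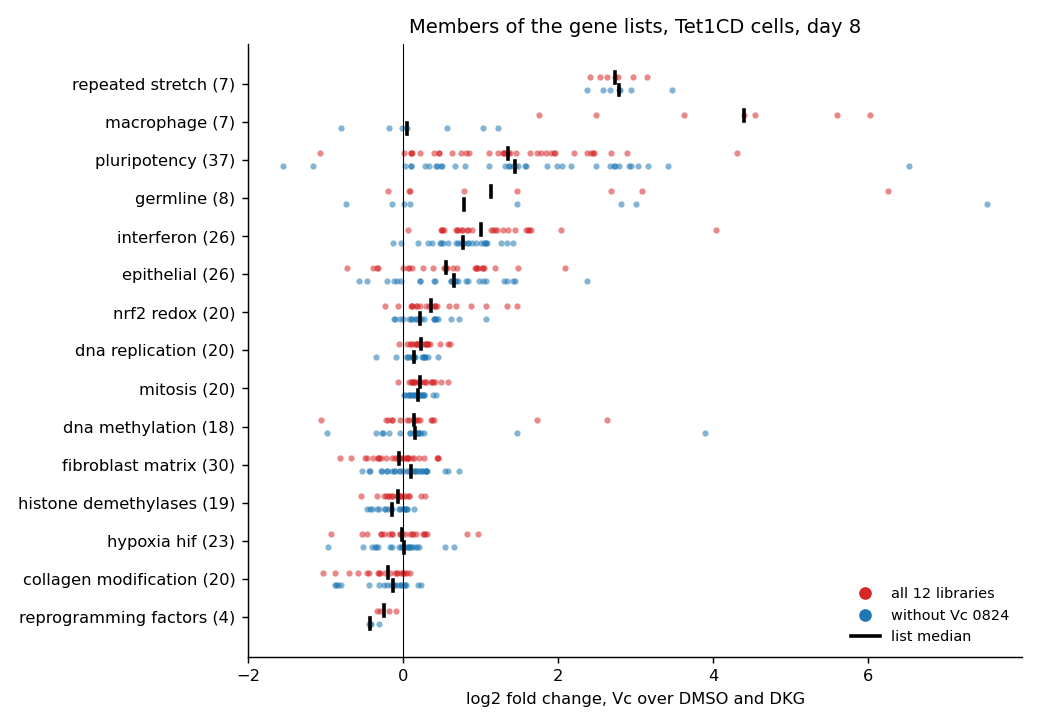
Log2 fold change of Vc over DMSO and DKG for each tested member of 15 gene lists (number tested in brackets), over all 12 libraries (red) and without Vc 0824 (blue), with list medians as black bars. The macrophage median moves from 4.40 to 0.05, the pluripotency median from 1.35 to 1.44.

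In Flag cells at day 8, with their own controls, 309 genes (2.24%) were called higher and 102 (0.739%) lower with Vc. Of the 182 genes raised in Tet1CD cells with and without Vc 0824, 69 (37.9%, and 22.3% of the Flag calls) were also called higher there. Of the 64 lowered genes, 31 were called lower too (48.4%, and 30.4% of the Flag calls), and 0 genes were called in opposite directions. The median log2 fold changes of the 2 sets in Flag cells were 0.83 and -0.50. P4ha1 had almost equal effects, -0.70 in Tet1CD and -0.71 in Flag cells (difference 0.00 ± 0.18, adjusted p = 0.998), and Tnc had -0.85 and -0.86.

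The test of the difference itself called 38 of 13795 genes, 21 (0.152%) with a higher effect in Tet1CD cells and 17 (0.123%) with a lower one. Slc38a6 had 486 and 225 CPM with Vc in Flag cells against 163 to 234 CPM in the Flag controls, and its effect was larger in Tet1CD cells by 1.96 ± 0.37 (adjusted p = 0.0365). Rab3gap1 had 173 and 138 CPM with Vc in Flag cells against 125 to 147 CPM (difference 2.04 ± 0.23, adjusted p = 0.00232). Both genes share a stretch of 50 bases with another gene, and Slc38a6 belongs to the 7 chosen for their response. Dpp4, the gene of a cell surface peptidase, differed the other way: Vc gave 64.3 and 124 CPM in Flag cells against 24.7 to 62.8 CPM, and 44.5 and 102 CPM in Tet1CD cells against 58.0 to 105 CPM (difference -1.40 ± 0.17, adjusted p = 0.00232).

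Pluripotency genes had a median effect of 1.895 in Flag cells, against 1.35 in Tet1CD cells. In each, 24 were called higher (2.24% of all genes in Flag and 4.98% in Tet1CD cells). The list summed to 401.5 to 716.4 CPM in the Flag controls and 516.1 to 1197 CPM in the Tet1CD controls. With Vc it summed to 1450 and 573.1 CPM in Flag cells and 1617 and 818.4 CPM in Tet1CD cells. The difference of the effects was called for 1 of the 37, Gdf3. In Flag cells Gdf3 had 28.9 and 11.9 CPM with Vc against 0.765 to 2.34 CPM, below the 15.2 to 28.5 CPM of the Tet1CD controls (difference -2.47 ± 0.48, adjusted p = 0.0477). Dazl was at 0 CPM in all 6 Flag libraries, so the difference between the viruses could not be estimated for it.

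**Figure D5:**
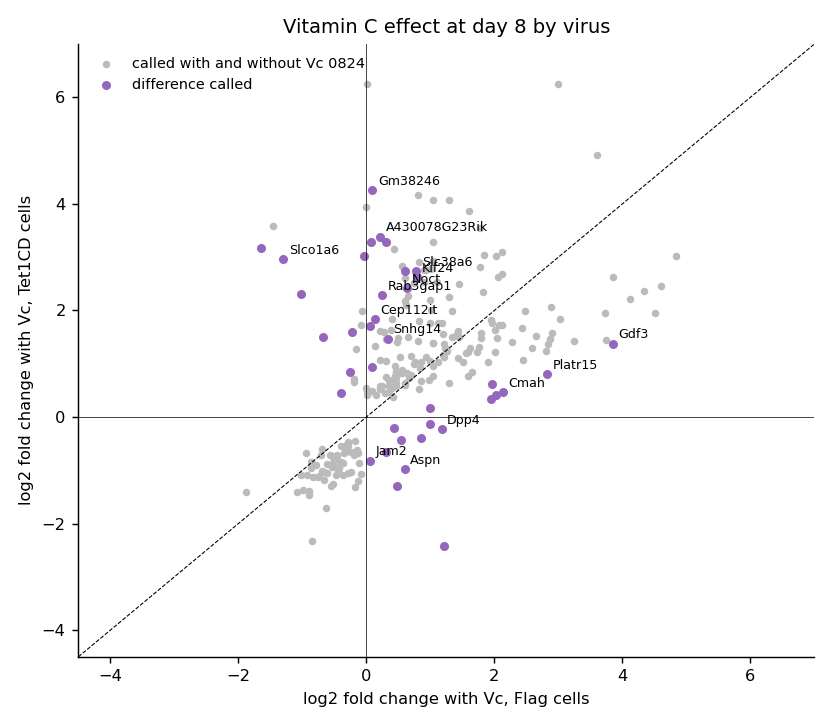
Log2 fold change with Vc in Flag cells (horizontal) and in Tet1CD cells (vertical) at day 8 for genes called with and without Vc 0824 (grey) and the 38 genes called in the test of the difference (purple, named where the text names them). Slc38a6 and Rab3gap1 lie above the line of equal effects and Gdf3 and Dpp4 below it.

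At day 3, 664 of 13079 genes (5.08%) were called higher and 176 (1.35%) lower with Vc in Tet1CD cells. Of the 182 genes raised at day 8, 164 were tested at day 3 and 124 were called higher there, and of the 64 lowered genes 27 were called lower. Slc38a6 already had 6404 and 3625 CPM with Vc at day 3, against 192 to 254 CPM in its controls. These controls lay below the day 8 controls given above. Dazl had 8.01 and 3.55 CPM with Vc at day 3 against 0 to 0.218 CPM, and Tex19.1 16.2 and 9.71 CPM against 0 to 0.229 CPM. Of the 37 pluripotency genes 17 were tested at day 3; Gdf3, L1td1 and Upp1 were called higher and Alpl lower (log2 fold change -1.31, adjusted p = 0.00297). Utf1 had at most 0.237 CPM in any of the 6 libraries. Gdf3 had 33.6 and 12.6 CPM with Vc at day 3 against 1.85 to 9.38 CPM. The change of effect between the days was not tested.

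Set against the references, 90 of the 182 raised genes (49.5%) were higher in both ESC libraries than in both MEF libraries, as were 33.7% of all genes tested, and 51 (28%) were lower, as were 39.7% of all. Of the 64 lowered genes, 42 (65.6%) were lower in ESC than in MEF and 12 (18.8%) higher. Nat8l was at 0.568 to 2.21 CPM in all 4 reference libraries, below its level in every reprogramming library shown here. Slc38a6 had at most 495.6 CPM in ESC or MEF, about the level of the Tet1CD controls with DMSO. The ESC libraries themselves differed, with 24410 and 5064 CPM summed over the 30 fibroblast and matrix genes.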

How the data were processed

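Libraries were made with a TruSeq RNA kit from 1 ug of total RNA taken with Trizol, per the labels' protocols. Bowtie, RSEM and mm10 were used, per the submitters' processing notes; their versions and the annotation release: not given in the sources used here. The deposited RSEM tables list the expected count, TPM and FPKM of each gene, per the file headers; the authors' expected counts entered the tests after rounding to integers, the deposited TPM served in 1 alternative (log2(TPM + 1), limma), and the deposited FPKM was not used. The kit's name and the labels state no counting strand, so overlapping and antisense genes cannot be told apart. Of 29267 gene identifiers 28756 matched GENCODE mouse release 21, the source of symbols and coordinates. Libraries used were 28 of 31.

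The test was edgeR 4.0.16 (glmQLFit and glmQLFTest, two-sided; R 4.3.3, limma 3.58.1) on the 12 day 8 libraries, with virus by Vc as 4 groups (DMSO and DKG together), the number 0824 or 0826 as a block, filterByExpr, TMM and Benjamini-Hochberg adjustment over all genes tested; a call is an adjusted p under 0.05. The fit left 7 residual degrees of freedom. Log2 fold changes are ± SE, the SE being |log2 fold change| divided by the root of the F statistic. Levels are CPM with TMM library sizes over the 28 libraries, given per library in the order 0824 and 0826. The labels do not explain the numbers; differences between 0824 and 0826 correlated across genes between all 15 pairs of day 8 groups (0.449 to 0.722), so the numbers pair libraries. The same test was run for Flag cells, for the difference between viruses, for DKG against DMSO and, on 12 libraries, for day 3. DESeq2 1.42.0, RLE scaling, no filter, no block, other library sets and leaving out each library were alternatives. The script was checked on simulated data.

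The comparison, gene lists and tests were chosen with earlier results of these data known. Named were the 15 genes of smallest p in each direction, called members of the lists (2 to 6 for long lists), a fixed set that includes Tet1, Nanog and Dazl, and 5 genes per direction from the test between viruses. No sequence is shown for genes without a RefSeq entry in the table used. Floors of 3 counts allow for counting error alone, and the labels name no molecular identifiers. One list holds an item that is not reported here.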

Additional observations from a re-analysis of the deposited data

Results flagged for a closer look

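The effect of Vc at day 8 differed between Tet1CD and Flag cells by the test of the difference (edgeR, adjusted p under 0.05) for 15 of the genes that the report's rule names. The values below are log2 differences, Tet1CD minus Flag. Larger with Tet1CD were the effects on Gm38246 (4.17), Slco1a6 (4.26), A430078G23Rik (3.17), Rab3gap1 (2.04), Slc38a6 (1.96), Kif24 (1.84), Noct (1.78), Cep112it (1.71) and Snhg14 (1.13). Transcripts of all 9 share a stretch of 50 bases with another gene, so their counts are uncertain. In Tet1CD cells with Vc, Gm38246 had 34.6 and 24.2 CPM against 0.568 to 2.30 CPM in the controls, while Flag cells had 0.774 to 2.08 CPM in all 6 libraries. Slco1a6, a transporter gene, had 24.6 and 21.4 CPM with Vc against 1.77 to 4.29 CPM, and 0.781 and 1.46 CPM with Vc in Flag cells against 1.94 to 4.33 CPM.

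Lower with Tet1CD were the effects on Gdf3 (-2.47), Platr15 (-2.03), Cmah (-1.67), Aspn (-1.58), Dpp4 (-1.40) and Jam2 (-0.88). Transcripts of Gdf3, Platr15 and Cmah share such a stretch too, so their counts are also uncertain, while those of Aspn, Dpp4 and Jam2 do not. Cmah, an enzyme gene of sialic acid synthesis, had 509.6 and 135 CPM with Vc in Flag cells against 32.9 to 114 CPM, and 460 and 208.5 CPM in Tet1CD cells against 141 to 411 CPM. Jam2, a junction adhesion gene, fell in Tet1CD cells (79.2 and 202.5 CPM with Vc, 136 and 357.5 CPM with DMSO, 148 and 352 CPM with DKG) and had a log2 fold change of 0.06 in Flag cells. Aspn, a small matrix proteoglycan gene, had 4.84 and 20.7 CPM with Vc in Tet1CD cells against 13.3 to 35.9 CPM, and 12.1 and 35.3 CPM in Flag cells against 8.13 to 23.1 CPM. Without the number as a block, 0 genes passed this test, with 350 at an unadjusted p under 0.05.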

How the results depend on the processing

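Without the replicate block, 87 genes were called for Vc in Tet1CD cells at day 8 in place of 1033, 11 in place of 246 for those called with and without Vc 0824, 13 in place of 411 in Flag cells, 0 in place of 38 for the difference, and 177 in place of 840 at day 3. Without the filter on low counts the counts were 1903, 496, 785 and 473, and 6 for DKG against DMSO. With 24 libraries they were 1595 in Tet1CD cells, 631 in Flag cells and 100 for the difference; DESeq2 gave 87 for the difference and 2 for DKG. Against DMSO alone 521 genes were called, against DKG alone 291, and with limma on log2(TPM + 1) 428. Leaving out 1 library gave 284 (without Vc 0824) to 1908 (without Vc 0826) calls in Tet1CD cells, with 600 without DMSO 0824. The range was 140 (without DMSO 0826) to 383 (without Flag DMSO 0826) for genes called with and without Vc 0824, 52 to 558 in Flag cells (52 without Flag Vc 0824, 171 without Flag Vc 0826, 243 without Flag DMSO 0824, 246 without Flag DKG 0824), 4 to 577 for the difference (4 without Flag Vc 0824, 577 without Tet1CD Vc 0826, and 12 to 23 without Flag Vc 0826, Flag DMSO 0824, Flag DKG 0824, or Tet1CD Vc 0824, DMSO 0824 or DKG 0826), 0 to 3 for DKG and 328 (without Vc 0824) to 931 at day 3. The cause was not tested. Alternatives for the 246 genes were chosen after seeing the data. Of these 246, 246 were called with RLE scaling, 235 with DESeq2, 198 without Vc 0826, 174 with limma and 68 without the block, and 0 changed sign in any of these. Some log2 fold changes turned sign. Without Vc 0824 they were -0.80 for Csf1r, -0.18 for Ctss and -0.017 for Lyz2 (6.91, 6.46 and 5.44 without Vc 0826). Without Vc 0826 they were -0.11 for L1td1, 0.19 for Myc and -0.23 for Twist1 (0.33, -0.44 and 0.58 without Vc 0824). Of the other values for named genes, 2731 kept direction and side of the threshold, 508 were no longer called and 30 became called. Depth limits genes under about 1 CPM.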
